A study of Mus musculus with 54 samples.

Results

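The early transcriptional response of parental Ba/F3-gp130 cells to Hyper-IL-6 was read from 6 of the 27 gene-expression arrays of the series, 3 of cells stimulated for 1 h with 100 ng/ml Hyper-IL-6 (numbered 2, 4 and 6) and 3 of unstimulated cells (numbered 1, 3 and 5), chosen by their labels alone. Ba/F3 is a murine pro-B cell line, and its gp130 derivative grows on Hyper-IL-6, a designer cytokine in which interleukin-6 is joined to the soluble interleukin-6 receptor so that gp130 is the only chain needed on the cell. The study compared this line with 3 derivatives (CIR-1, CIR-2 and CIR-3) that carry Cargo Internalization Receptor constructs, with and without a 1 h exposure to 50 µl/ml of a GFP-PFC emulsion, and Hyper-IL-6 served as the positive stimulation control in parental cells only. Parental cells carry no CIR construct. All groups had been grown in 10 ng/ml Hyper-IL-6, washed 4 times in PBS and held for 3 h without serum, so the unstimulated cells were cells recently deprived of the same cytokine, and the labels name no mock addition. No label states that a group's 3 arrays were grown as independent cultures. The p-values therefore measure the spread between arrays within groups, pooled over all 9 groups of the fit, which may be technical. The species of the gp130 transgene is not given in the sources used here.

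Ligand-bound gp130 activates the associated kinases JAK1, JAK2 and TYK2, which phosphorylate STAT3 and, through SHP2, open the RAS and ERK branch. STAT dimers bind GAS elements, short palindromes of the form TTCNNNGAA, in the promoters of their targets. Among those targets are SOCS3, which shuts off the receptor, PIM kinases and anti-apoptotic BCL2 family members, while the ERK branch induces FOS and EGR genes and its own phosphatases of the DUSP family.

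Values are log2 signals as deposited, differences are on that scale, n = 3 arrays per group, and a gene is said to rise or fall where limma gave an adjusted p (Benjamini-Hochberg over all 19920 genes, all 27 arrays in the fit) under 0.05. Lower quartiles of the arrays lay between 6.22 and 6.31, and signals below them were not shown to lie above background. Of 17 measured pro-B cell markers, 9 lay above 6.31 on all 6 arrays. These were Ptprc, Spn, Tcf3, Cd79a and Cd79b and, at lower signals, the early B-cell genes Pax5 (7.18 to 7.41), Igll1 (7.42 to 7.64) and Vpreb1 (6.84 to 7.30) and Bst1, whereas Ebf1, Rag2, Dntt, Il7r and Cd24a lay below 6.22 on all 6 and Rag1, Blnk and Cd93 lay around the quartiles. Above 6.31 on all 6 arrays as well were 9 of 13 mast cell and basophil markers (Gata2 at 13.0 to 13.2), 9 of 13 macrophage and neutrophil markers (Mpo at 10.1 to 11.0), 6 of 9 T-cell markers and 6 of 7 erythroid and megakaryocyte markers. Of the 59 markers in these 5 lists limma called 0 after Hyper-IL-6 (1 had an unadjusted p under 0.05). Over all genes 0.773% were called, so a count of 0 is no result about the markers. The mean signal of each list moved little. For the pro-B list it ran from 7.57 to 7.71 across the unstimulated arrays and from 7.62 to 7.68 across the Hyper-IL-6 arrays. Il6st, which encodes mouse gp130, lay between 6.20 and 6.42 on the 6 arrays at gene level, around the quartiles. Its 18 exon-level probe sets ranged in mean from 3.94 to 13.0, and 5 of them exceeded the exon-level median of 8.53.

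After 1 h of Hyper-IL-6, 146 genes rose and 8 fell (0.733% and 0.0402% of all genes, 0.773% in either direction), and 49 rose by 1 or more, at least a doubling (0.246%). The median of all genes moved by -0.01. The rises were led by the cytokine genes Osm and Lif, the stress gene Gadd45g, the feedback inhibitor Socs3, the mRNA decay factor Zfp36 and the cytokine Il10. Arrays correlated at 0.9925 to 0.9979 within the unstimulated group and at 0.997 to 0.9988 within the Hyper-IL-6 group across genes. Of the 154 calls, 76 held with each of the 6 arrays left out in turn and 78 ended without at least 1 of them. Omitting Hyper-IL-6 array 4 or 6 left 78 and 79 called genes, omitting unstimulated array 3 left 96, and omitting Hyper-IL-6 array 2 gave 248. A fit to the 6 arrays alone called 31 genes, all higher. The lists used in the following held 403 measured genes, of which 56 rose and 0 fell in limma (95 and 10 at an unadjusted p under 0.05). Lists and members were chosen with earlier results of these data known. Their counts and medians are therefore a description and no independent support.

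**Figure D1:**
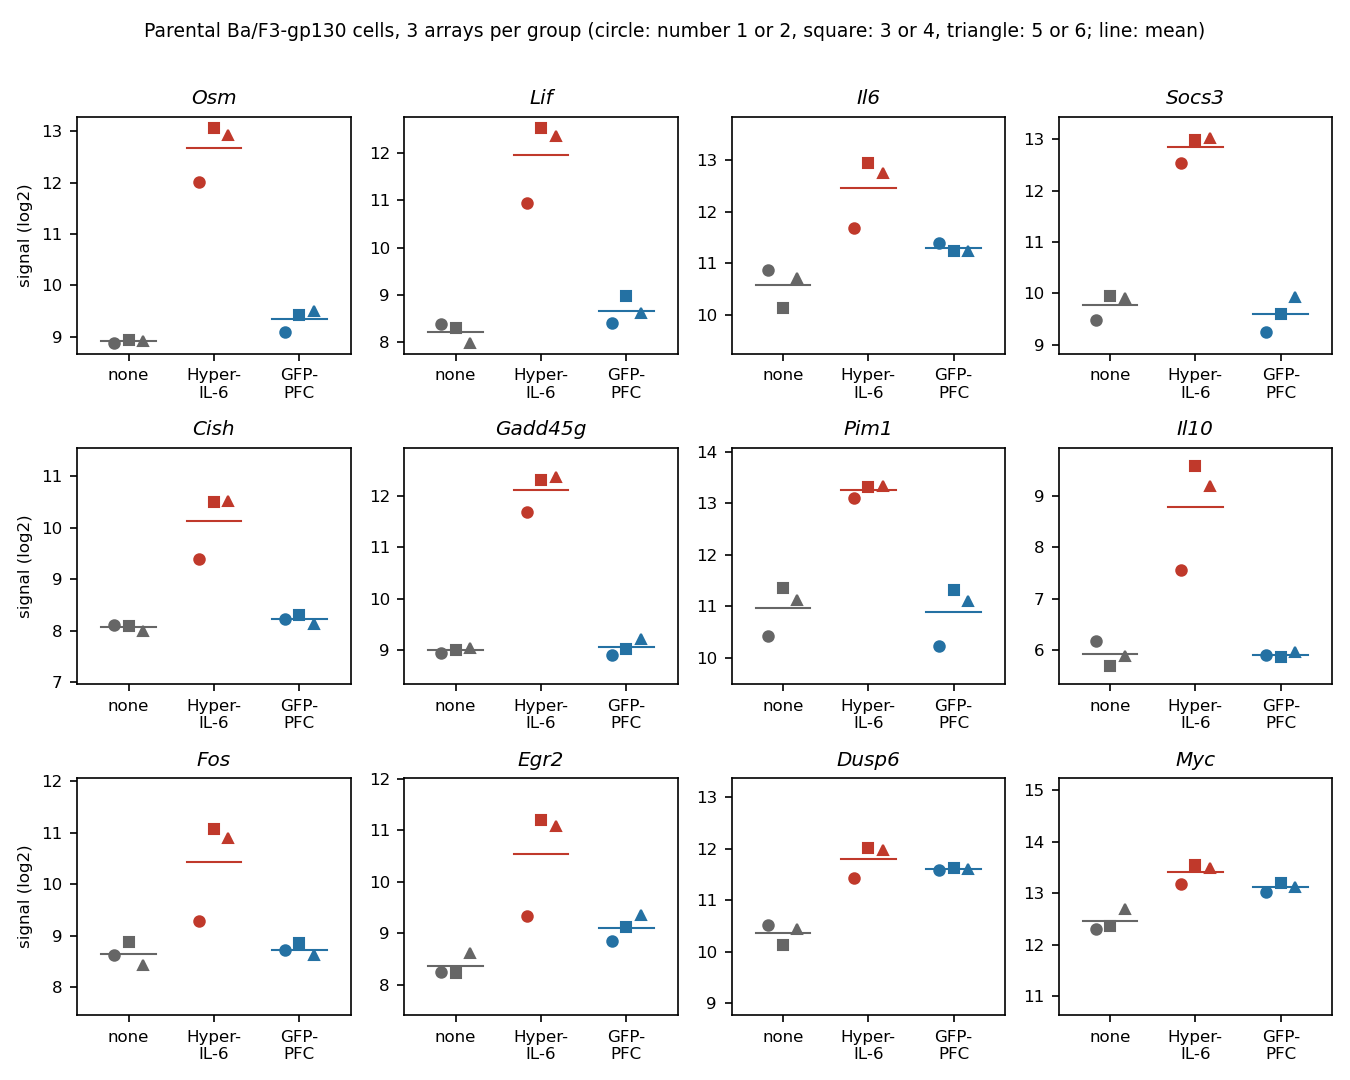
Log2 signal of 12 genes in parental cells, one point per array (vertical axis, range at least 4.6 in each panel, not starting at 0) without stimulation, after Hyper-IL-6 and after GFP-PFC, with the mean of 3 arrays as a line. The Hyper-IL-6 points of Osm lie at 12.01 to 13.07 against 8.88 to 8.93 unstimulated, whereas those of Dusp6 lie close to its GFP-PFC points.

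Among ligands of the IL-6 family, 3 of 10 measured genes rose, with a median difference of 0.11 over the list against -0.01 over all genes. Osm encodes oncostatin M, itself a gp130 ligand, and read 8.88, 8.93 and 8.92 in unstimulated arrays 1, 3 and 5 and 12.01, 13.07 and 12.94 in Hyper-IL-6 arrays 2, 4 and 6. The groups were far apart, and Osm rose by 3.77 (SE 0.22, 13.6-fold, adjusted p = 1.65e-10). Lif, which encodes leukemia inhibitory factor, went from 8.38, 8.30 and 7.99 to 10.95, 12.54 and 12.37. Array 2 was the lowest of the stimulated arrays but still above all unstimulated ones, and Lif rose by 3.73 (SE 0.28, 13.3-fold, adjusted p = 9.97e-09). Il6 itself read 10.87, 10.13 and 10.71 unstimulated and 11.68, 12.96 and 12.76 stimulated, a rise of 1.89 (SE 0.23, adjusted p = 2.68e-05) without overlap. The other ligand genes of the list stayed uncalled, from Ctf1 at -0.27 to Il27 at 0.17. These 3 rises were called with any single array left out, and Il6 was not called in the fit to the 6 arrays alone.

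In limma, 0 of 7 receptor chains and 0 of 18 JAK, STAT and adaptor genes were called, and 2 of each list had an unadjusted p under 0.05. With 0.773% of all genes called, lists of these sizes may hold no call by that share alone. Of the chains, Il27ra differed by 0.37, Il6ra by 0.01 (95% interval -0.16 to 0.19), Il6st by -0.05 (-0.17 to 0.08) and Cntfr by -0.27. Within the cascade, the highest difference was that of the kinase gene Jak2, 0.28 (95% interval 0.02 to 0.55), followed by Stat3, 0.19 (0.02 to 0.36, adjusted p = 0.65). Stat3 read 12.07, 12.25 and 12.17 unstimulated and 12.32, 12.37 and 12.36 stimulated, so its groups did not overlap although the difference missed the threshold. Non-overlapping groups with the stimulated side higher were seen in 4.85% of all genes, and with the stimulated side lower in 3.96%.

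The SOCS family, SH2-domain inhibitors of cytokine receptors, had 4 rises among 8 measured members and a list median of 0.25. Socs3, which binds gp130 directly, read 9.49, 9.95 and 9.92 in unstimulated arrays and 12.54, 12.98 and 13.01 after Hyper-IL-6. All stimulated arrays were high, array 2 included, and Socs3 rose by 3.06 (SE 0.28, 8.33-fold, adjusted p = 2.14e-07). Cish, an inhibitor best known as a STAT5 target, read 8.10, 8.08 and 8.00 unstimulated and 9.39, 10.49 and 10.52 stimulated. The groups did not overlap, array 2 stood lower than the other stimulated arrays, and Cish rose by 2.07 (SE 0.19, adjusted p = 2.68e-07). Socs1, an inhibitor of JAK kinases, rose by 0.75 (SE 0.14, adjusted p = 0.00605), and Socs2 rose by 0.37 (SE 0.08, adjusted p = 0.0175). Socs4, Socs5, Socs6 and Socs7 differed by -0.04 to 0.13 and were not called. The list held 2 calls without Hyper-IL-6 array 6, where Socs1 (adjusted p = 0.0614) and Socs2 dropped out, and the Socs2 call also ended without array 4 and without unstimulated arrays 3 and 5 (adjusted p up to 0.188).

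Of 20 transcription factor genes known as STAT3 targets, 11 rose, where 0.733% of all genes did. The list median was 0.74 against -0.01 over all genes, in a list chosen with earlier results of these data known. Irf1, an interferon regulatory factor, read 9.68, 9.21 and 9.44 unstimulated and 10.55, 11.15 and 11.18 after Hyper-IL-6, and rose by 1.52 (SE 0.13, 2.86-fold, adjusted p = 1.22e-07). Junb, a partner of FOS in AP-1, rose by 1.46 (SE 0.12, adjusted p = 7.77e-08). Bcl6, a repressor of B-cell differentiation genes, rose by 1.20 (SE 0.23, adjusted p = 0.00605) from 8.46, 8.17 and 8.59 to 9.10, 9.90 and 9.83. The C/EBP factor genes Cebpd and Cebpb, known from the acute phase response, rose by 0.93 (SE 0.14) and 0.52 (SE 0.09), and Nfil3, a basic leucine zipper repressor, rose by 0.98 (SE 0.14). Sbno2, a co-repressor linked to the anti-inflammatory action of IL-10, rose by 0.96 (SE 0.13, adjusted p = 9.63e-05), and 27 of its 32 exon-level probe sets had non-overlapping higher values. The circadian repressor gene Bhlhe40 rose by 1.52 (SE 0.36, adjusted p = 0.0402), with unstimulated arrays spread from 10.79 to 11.70. Batf, an AP-1 factor of lymphocytes, differed by 0.56 with an adjusted p of 0.0519 and was not called. The Bcl6 call ended without Hyper-IL-6 array 4 or 6 or unstimulated array 3 (adjusted p up to 0.092), and the Bhlhe40 call without any 1 of 4 arrays (Hyper-IL-6 arrays 4 and 6, unstimulated arrays 1 and 3; adjusted p up to 0.299).

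Genes known as STAT5 targets overlap with these lists, and 6 of 11 rose, namely Osm, Pim1, Cish, Id1, Bcl6 and Socs2. Pim1, a serine/threonine kinase that promotes survival, read 10.43, 11.35 and 11.12 unstimulated and 13.10, 13.32 and 13.33 stimulated. The stimulated arrays were tight and the unstimulated ones spread, with array 1 lowest, and Pim1 rose by 2.28 (SE 0.53, 4.87-fold, adjusted p = 0.0388). This call ended with any 1 of the 6 arrays left out (adjusted p up to 0.214). The groups did not overlap, so the sign could not change in those fits. All 7 exon-level probe sets of Pim1, read from the same arrays, were higher without overlap, against 5.24% of exon-level probe sets of measured genes. The SE is that of the fit to all 27 arrays. Pim1 was called in the fit to the 6 arrays alone, but not with exon-level values, quantile normalization or an intensity trend. Id1, an inhibitor of basic helix-loop-helix factors, rose by 1.47 (SE 0.24, adjusted p = 0.00106) from 9.88, 10.16 and 9.97 to 11.35, 11.49 and 11.59. The uncalled members ranged from Ccnd2 at 0.02 to Pim2 at 0.84 (95% interval 0.14 to 1.55), and without Hyper-IL-6 array 4 or 6 or unstimulated array 3 the list held 3 calls.

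**Figure D2:**
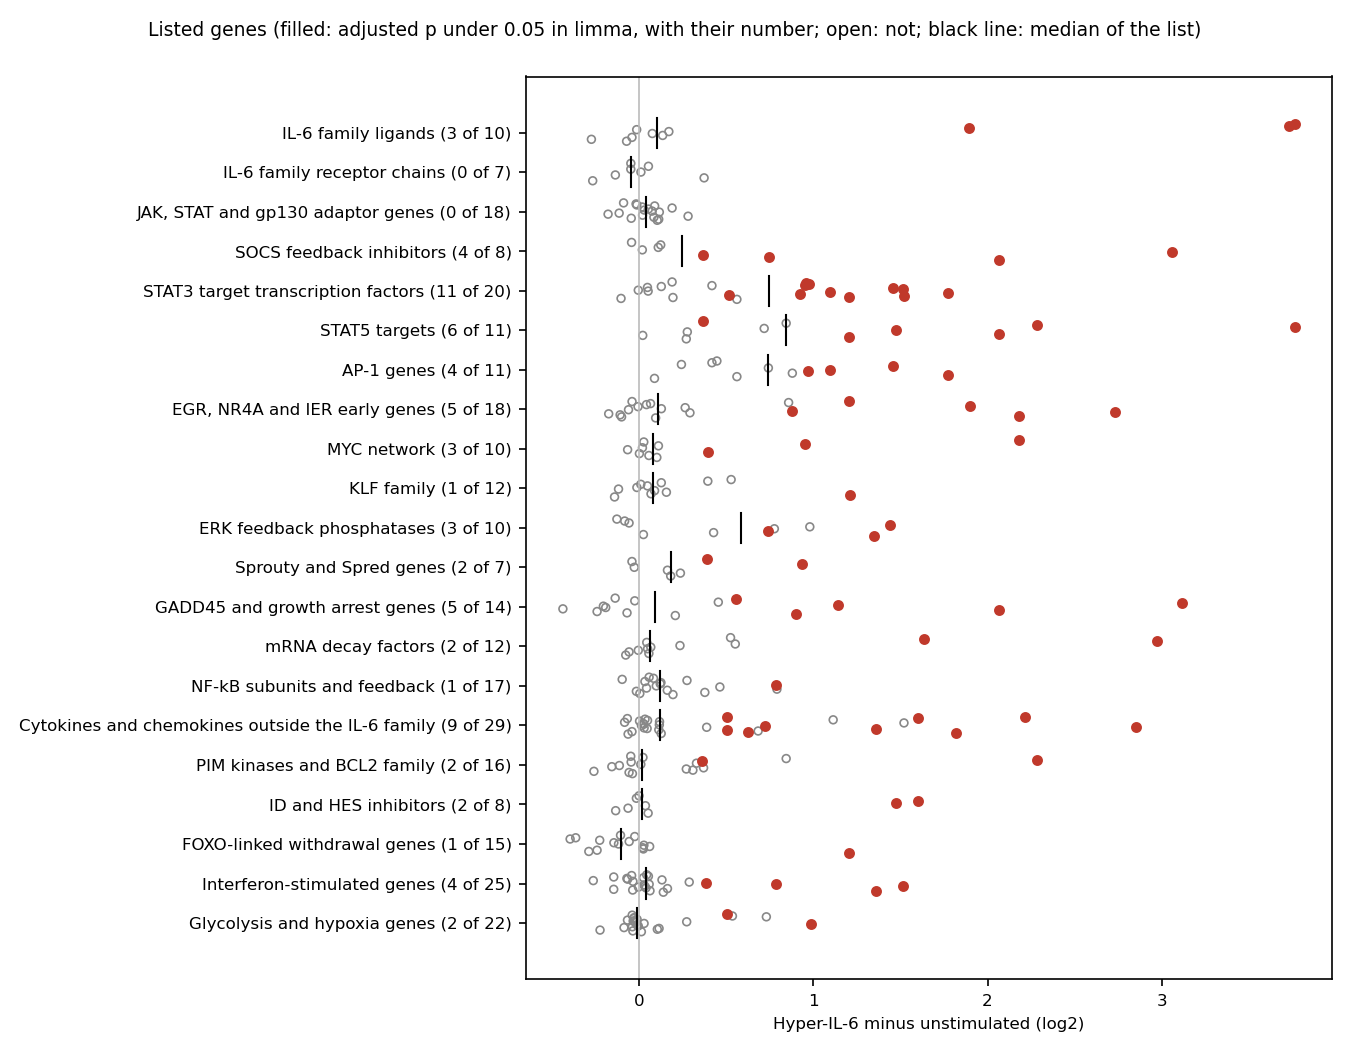
Difference between Hyper-IL-6 and unstimulated arrays (horizontal axis, log2) for each measured gene of 21 lists, with called genes filled and the list median as a black line. The lists of STAT3 target transcription factors, STAT5 targets and AP-1 genes have medians of 0.74, 0.84 and 0.74, while the receptor chains and the JAK and STAT genes hold no filled point. The lists were chosen with earlier results of these data known.

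Promoters of 117 of the 146 risen genes were found in the RefSeq table (GRCm38.p6), which gives 250 bases before and 50 after each annotated start of the reference strain, not of this line. The GAS-like letters TTCNNNGAA occurred in a promoter of 20 of these 117 genes (17.1%), of 8 of the 40 genes with a rise of 1 or more (20%) and of 1403 of all 15614 measured genes with a promoter (8.99%). The stricter TTCCNGGAA, a subset of the former, occurred for 5 of 117 (4.27%) against 1.43% of all. Both are palindromes, so 1 strand covers both, and of all 32851 promoter windows 8.3% and 1.15% held them. The CArG box, the site of serum response factor, was added to the search after the differences had been seen, and stood in promoters of 3 of 117 risen genes (2.56%) against 1.63% of all genes. None of the 6 fallen genes with a promoter held any of these motifs. A gene was counted where any of its windows held the letters, so genes with several annotated starts had more windows to match. A match describes letters and is not a bound site.

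The promoters shown are those of 7 risen feedback and regulator genes that carried such letters, chosen after the differences were seen, and other risen genes, among them Zeb2 and Rara, held GAS-like matches too. They are printed 5′ to 3′ on the gene's strand, 1 window per gene, with GAS-like matches and CArG boxes in capitals. Socs3 (chr11:117969317-117969616, minus strand) held 1 GAS-like match, TTCTTAGAA, starting 154 bases upstream of the start. Cish (chr9:107296409-107296708, plus strand) held TTCCTGGAA and TTCTTGGAA within its first 50 transcribed bases, and Irf1 (chr11:53769764-53770063, plus strand) held TTCCCCGAA starting 90 bases upstream. Bcl6 (chr16:23981234-23981533, minus strand) held 3 matches, TTCCTGGAA, TTCTGTGAA and TTCCGGGAA, starting 168, 122 and 88 bases upstream. Sbno2 (chr10:80101138-80101437, minus strand) held TTCCCGGAA starting 24 bases upstream. Both genes had another window that is not printed. The Bcl6 window from 23988803 held TTCTCAGAA starting 118 bases upstream, and the Sbno2 window from 80102653 held TTCGCAGAA starting 26 bases upstream. Zfp36 (chr7:28379179-28379478, minus strand) held a CArG box, CCATAAAAGG, and a GAS-like match, TTCTGCGAA, starting 58 and 17 bases upstream. Egr2 (chr10:67537620-67537919, plus strand) held the CArG box CCATATATGG starting 73 bases upstream and no GAS-like match. Windows of other Egr2 starts, not printed, held CCATATATGG or CCTTTTTTGG. The windows of Lif, Gadd45g, Pim1 and Fos held neither. Sites more than 250 bases upstream lay outside the windows and could not be found.
Socs3: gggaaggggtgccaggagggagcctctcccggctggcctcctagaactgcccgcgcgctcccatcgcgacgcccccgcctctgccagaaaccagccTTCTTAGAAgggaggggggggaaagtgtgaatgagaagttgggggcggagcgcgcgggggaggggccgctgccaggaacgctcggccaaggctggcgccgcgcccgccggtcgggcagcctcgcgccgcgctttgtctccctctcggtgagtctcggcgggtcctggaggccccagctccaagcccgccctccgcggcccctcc
Cish: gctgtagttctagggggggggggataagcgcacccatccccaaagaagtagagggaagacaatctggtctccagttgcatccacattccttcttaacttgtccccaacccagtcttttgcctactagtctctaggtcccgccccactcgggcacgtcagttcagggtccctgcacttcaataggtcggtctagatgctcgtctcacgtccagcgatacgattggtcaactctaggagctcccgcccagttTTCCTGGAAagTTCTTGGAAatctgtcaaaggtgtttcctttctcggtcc
Irf1: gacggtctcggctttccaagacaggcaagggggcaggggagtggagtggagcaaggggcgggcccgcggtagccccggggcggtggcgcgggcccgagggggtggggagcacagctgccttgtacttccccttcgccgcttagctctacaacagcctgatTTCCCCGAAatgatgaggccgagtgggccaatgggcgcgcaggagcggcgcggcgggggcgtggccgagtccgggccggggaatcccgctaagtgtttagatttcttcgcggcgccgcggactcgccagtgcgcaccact
Bcl6: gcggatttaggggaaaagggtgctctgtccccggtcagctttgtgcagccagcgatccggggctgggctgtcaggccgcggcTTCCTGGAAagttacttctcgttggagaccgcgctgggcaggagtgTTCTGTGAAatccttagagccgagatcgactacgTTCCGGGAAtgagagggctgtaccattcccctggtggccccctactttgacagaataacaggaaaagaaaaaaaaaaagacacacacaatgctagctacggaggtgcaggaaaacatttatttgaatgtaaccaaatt
Sbno2: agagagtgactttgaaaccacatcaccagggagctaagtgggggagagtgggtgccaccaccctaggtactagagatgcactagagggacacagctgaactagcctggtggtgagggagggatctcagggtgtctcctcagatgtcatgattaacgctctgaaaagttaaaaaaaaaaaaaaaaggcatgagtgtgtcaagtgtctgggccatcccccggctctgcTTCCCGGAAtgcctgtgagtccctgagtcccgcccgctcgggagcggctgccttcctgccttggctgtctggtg
Zfp36: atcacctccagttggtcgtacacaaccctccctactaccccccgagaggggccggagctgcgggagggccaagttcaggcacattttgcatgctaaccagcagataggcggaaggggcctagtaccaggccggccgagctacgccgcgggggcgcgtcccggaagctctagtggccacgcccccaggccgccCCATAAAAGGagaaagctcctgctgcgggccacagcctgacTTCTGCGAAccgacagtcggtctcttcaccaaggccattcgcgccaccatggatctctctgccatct
Egr2: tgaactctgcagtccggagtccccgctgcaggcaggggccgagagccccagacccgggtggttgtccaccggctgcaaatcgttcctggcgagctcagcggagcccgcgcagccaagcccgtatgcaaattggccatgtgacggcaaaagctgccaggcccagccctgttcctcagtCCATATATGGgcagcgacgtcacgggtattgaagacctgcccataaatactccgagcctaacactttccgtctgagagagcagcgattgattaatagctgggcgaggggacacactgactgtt

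Immediate early genes of the AP-1 and EGR families, known targets of the ERK branch, rose in part. Of 11 AP-1 genes, 4 rose, with a list median of 0.74, among them Junb and Fos, which are also in the list of STAT3 targets. Fos read 8.64, 8.88 and 8.44 unstimulated and 9.29, 11.08 and 10.90 stimulated. The groups did not overlap, but array 2 lay close to the unstimulated arrays, and Fos rose by 1.77 (SE 0.31, 3.42-fold, adjusted p = 0.00239). Fosl2 rose by 1.10 (SE 0.17, adjusted p = 0.000584), and Fosl1 rose by 0.97 (SE 0.23, adjusted p = 0.0402), a call that ended without Hyper-IL-6 arrays 4 or 6 or unstimulated arrays 1 or 3 (adjusted p up to 0.362). Fosb differed by 0.88 (95% interval 0.03 to 1.73) and Jun by 0.74 (0.17 to 1.32), and neither passed.

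The list of EGR, NR4A and IER early genes also held genes outside these families, such as Tnfaip2. Of its 18 genes 5 rose, and the list median of 0.11 was low. Ier3, an early gene that protects from apoptosis, went from 10.01, 9.87 and 10.50 to 12.38, 13.14 and 13.06 and rose by 2.73 (SE 0.32, 6.64-fold, adjusted p = 1.36e-05). Egr2, a zinc finger factor, read 8.24, 8.22 and 8.61 unstimulated and 9.32, 11.20 and 11.08 stimulated, a rise of 2.18 (SE 0.36, adjusted p = 0.00133). The nuclear receptor gene Nr4a2 rose by 1.90 (SE 0.32, adjusted p = 0.00158), Tnfaip2 by 1.21 (SE 0.26, adjusted p = 0.0192) and Ier5 by 0.88 (SE 0.21, adjusted p = 0.0419). Close relatives of these genes were not called, with Egr1 at -0.10, Egr3 at -0.11, Egr4 at -0.17, Nr4a1 at 0.00, Nr4a3 at 0.04 and Ier2 at 0.29 (95% interval 0.06 to 0.53). The list held 3 calls without Hyper-IL-6 array 4 or 6 or unstimulated array 1 or 3, and the calls that ended were those of Tnfaip2 (adjusted p up to 0.181) and Ier5 (up to 0.485, also without unstimulated array 5).

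Negative regulators of ERK rose in part as well. Of 10 dual-specificity phosphatase genes, 3 rose, with a list median of 0.58. Dusp6, a cytoplasmic ERK phosphatase, read 10.52, 10.13 and 10.45 unstimulated and 11.43, 12.02 and 11.98 stimulated, and rose by 1.44 (SE 0.32, 2.72-fold, adjusted p = 0.026). The nuclear phosphatase gene Dusp1 rose by 1.35 (SE 0.30, adjusted p = 0.0307), from 10.41, 10.39 and 10.63 to 11.15, 12.22 and 12.10, and Dusp2 by 0.74 (SE 0.14, adjusted p = 0.00605). Dusp5 and Dusp4 differed by 0.98 (95% interval 0.35 to 1.61) and 0.78 (0.31 to 1.25) without passing, and Dusp16, Dusp10, Dusp7, Dusp8 and Dusp9 lay between -0.13 and 0.43. Of 7 Sprouty and Spred genes, inhibitors of RAS and RAF activation, Spry2 rose by 0.94 (SE 0.18, adjusted p = 0.0081) and Spry4 by 0.39 (SE 0.09, adjusted p = 0.032), while Spry1, Spry3 and the 3 Spred genes lay between -0.04 and 0.24. Without Hyper-IL-6 array 4 or without array 6, neither list held a call (over all arrays left out in turn, the adjusted p reached 0.212 for Dusp6, 0.325 for Dusp1, 0.0956 for Dusp2, 0.118 for Spry2 and 0.325 for Spry4). Without unstimulated array 3 or 5 the phosphatase list held 1 each, and without unstimulated array 1 or 3 the Sprouty list held 1 each.

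Among genes of growth control and survival, both growth arrest genes and MYC genes rose. Gadd45g, a stress sensor that binds cell cycle and MAP kinase kinase kinase proteins, read 8.94, 9.01 and 9.04 unstimulated and 11.68, 12.30 and 12.36 stimulated. It had the smallest adjusted p of all genes, with a rise of 3.12 (SE 0.14, 8.67-fold, adjusted p = 9.36e-13). The CDK4 and CDK6 inhibitor gene Cdkn2d rose by 2.07 (SE 0.16, adjusted p = 1.97e-08), from 10.10, 10.23 and 10.15 to 11.98, 12.39 and 12.30. Gadd45b rose by 1.14 (SE 0.12), and the antiproliferative genes Btg2 and Tob1 by 0.90 (SE 0.20) and 0.56 (SE 0.09), which made 5 of 14 members of the GADD45 and growth arrest list with a list median of 0.09. Uncalled members lay between Ddit3 at -0.44 and Ppp1r15a at 0.46, with Gadd45a at -0.20. The Btg2 call (adjusted p = 0.0234) ended without any 1 of 4 arrays (Hyper-IL-6 arrays 4 and 6, unstimulated arrays 1 and 5; adjusted p up to 0.299).

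In the MYC network 3 of 10 genes rose. Mycn went from 9.85, 9.54 and 9.68 to 11.37, 12.12 and 12.14, a rise of 2.18 (SE 0.23, 4.54-fold, adjusted p = 3.59e-06). Myc read 12.31, 12.37 and 12.69 unstimulated and 13.17, 13.56 and 13.50 stimulated and rose by 0.95 (SE 0.21, adjusted p = 0.0256), and Mxd1, which encodes an antagonist of MYC, rose by 0.40 (SE 0.09, adjusted p = 0.0351). The Myc and Mxd1 calls ended without Hyper-IL-6 array 4 or 6 or unstimulated array 1, which left 1 call in the list (adjusted p up to 0.214 and 0.297). Of 16 PIM and BCL2 family genes, Pim1 and the anti-apoptotic Mcl1 rose. Mcl1 read 12.50, 12.46 and 12.44 unstimulated and 12.70, 12.87 and 12.91 stimulated, a small rise of 0.36 (SE 0.06, 1.28-fold, adjusted p = 0.00137). Bcl2 at 0.31, Bcl2l1 at 0.27 (95% interval 0.03 to 0.52), Bcl2l11 at 0.37, Pim3 at 0.02 and Bbc3 at -0.26 were not called, and with any single array left out Mcl1 was the 1 call of the list. Among 8 ID and HES genes, Id1 and Id2 rose, the latter by 1.60 (SE 0.24, adjusted p = 0.000535), and Id3 at -0.01 and Hes1 at 0.05 were not called.

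Post-transcriptional regulators and secreted factors followed. Zfp36 encodes tristetraprolin, which destabilises cytokine mRNAs, and read 8.56, 8.48 and 8.38 unstimulated and 10.50, 11.91 and 11.92 stimulated. It rose by 2.97 (SE 0.28, 7.83-fold, adjusted p = 3.26e-07), and its paralogue Zfp36l1 rose by 1.64 (SE 0.16, adjusted p = 4.46e-07), the only calls among 12 mRNA decay factors. Of 29 cytokine and chemokine genes outside the IL-6 family, 9 rose, with a list median of 0.12. Il10 read 6.17, 5.70 and 5.89 unstimulated, below the lower quartiles, and 7.56, 9.57 and 9.20 stimulated. It rose by 2.85 (SE 0.28, adjusted p = 8.18e-07), from a level not shown to lie above background. Tnfsf9, the ligand of 4-1BB, rose by 2.21 (SE 0.34), and Tnfsf14, known as LIGHT, by 1.60 (SE 0.19). The chemokine genes Ccl3, Cxcl10 and Ccl4 rose by 1.82 (SE 0.42), 1.36 (SE 0.24) and 0.62 (SE 0.11).

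Ccl3 read 7.82, 7.66 and 7.98 unstimulated and 8.42, 10.35 and 10.15 stimulated, so arrays 4 and 6 were high and array 2 only slightly raised. Il13, Vegfa and Csf2 rose by 0.72, 0.51 and 0.50, and Csf2 lay below the quartiles in unstimulated cells. Il4 at 1.52 (95% interval 0.67 to 2.38) and Tnf at 1.11 (0.55 to 1.68, adjusted p = 0.0582) were not called, although both intervals lay above 0. The cytokine list held 5 calls without Hyper-IL-6 array 4 or 6 or unstimulated array 3, and the calls of Ccl3, Csf2, Il13 and Vegfa ended in at least 4 of the 6 fits with 1 array left out (adjusted p up to 0.39, 0.503, 0.189 and 0.209). Among 17 NF-kB genes Nfkbiz, an atypical nuclear IκB, rose by 0.79 (SE 0.18, adjusted p = 0.0351), a call that ended without Hyper-IL-6 array 4 or 6 or unstimulated array 1 or 3 (adjusted p up to 0.402). Nfkbia differed by 0.79 as well (95% interval 0.30 to 1.28) and did not pass.

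Interferon-stimulated genes were called in 4 of 25 cases. Besides Irf1 and Cxcl10 these were Irf9, an interferon regulatory factor gene, which rose by 0.78 (SE 0.09, adjusted p = 1.62e-05), and Irgm1 with 0.38 (SE 0.09, adjusted p = 0.0307, not called without Hyper-IL-6 array 4 or 6 or unstimulated array 3 or 5; adjusted p up to 0.312). The uncalled members ranged from Mx2 at -0.26 (95% interval -0.55 to 0.02) to Isg20 at 0.29 (0.12 to 0.46), with the antiviral genes Ifit1 at 0.16, Mx1 at -0.03, Rsad2 at -0.14 and Oasl2 at -0.06 between them, and the list median was 0.04. Of 22 glycolysis and hypoxia genes, Hk2, which encodes hexokinase 2, rose by 0.99 (SE 0.16, adjusted p = 0.000854), and Vegfa was the other call. Hk2 had non-overlapping higher values in all 19 of its exon-level probe sets. The glucose transporter genes Slc2a1 and Slc2a3 differed by 0.73 and 0.54 without passing, and without Hyper-IL-6 array 4 or 6 or unstimulated array 3 or 5 Hk2 was the single call. Klf10 was the 1 call among 12 KLF genes, with a rise of 1.21 (SE 0.15, adjusted p = 3.68e-05), and the list held 2 without Hyper-IL-6 array 2. Bcl6 was the 1 rise among 15 genes linked to FOXO and cytokine withdrawal, whose list median was -0.11. At an unadjusted p under 0.05, 1 of the 15 was higher and 4 were lower, and the lowest difference was -0.39. That list held no call where the Bcl6 call ended, without Hyper-IL-6 array 4 or 6 or unstimulated array 3 (adjusted p up to 0.092).

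In limma, 0 of 20 cell cycle entry genes, 0 of 21 ribosome biogenesis genes, 0 of 15 cholesterol synthesis genes and 0 of 22 haematopoietic cytokine receptor genes were called at 1 h (0, 1, 0 and 2 at an unadjusted p under 0.05). Over all genes 0.773% were called. At that share lists of these sizes may hold no call, so the counts do not show that these genes were unaffected. Differences in the ribosome biogenesis list ran from -0.14 to 0.20 and in the cell cycle list from -0.08 to 0.24. In the receptor list the interleukin-4 receptor gene Il4ra was highest at 0.93 (95% interval 0.33 to 1.54, adjusted p = 0.26).

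Among the 20 highest rises, 3 genes stood outside all lists. Gpr146, a G protein-coupled receptor gene, read 8.48, 8.22 and 8.12 unstimulated and 10.00, 10.91 and 10.92 stimulated and rose by 2.34 (SE 0.15, 5.07-fold, adjusted p = 5.65e-10). Its rise was smaller in the exon-level values, 1.03 as the mean of 3 probe sets that differed by 0.36 to 2.00, 2 of them without overlap, and 1.53 as the mean of its gene-level probe sets. Csrnp1, a nuclear protein gene, rose by 1.96 (SE 0.22, adjusted p = 4.75e-06) and Tldc2, a TLDc-domain gene, by 1.86 (SE 0.30, adjusted p = 0.00109). All 3 had higher values without overlap, which the rule for naming them required.

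The 8 falls were small. Clec2d, which encodes a C-type lectin that is a ligand of an NK-cell receptor, read 11.63, 11.16 and 11.12 unstimulated and 10.77, 10.20 and 10.28 stimulated, and fell by 0.89 (SE 0.14, adjusted p = 0.000898), with 6 of 7 exon-level probe sets lower without overlap. It was the only fall called with each of the 6 arrays left out. Olfr960, Skida1, Mepce, Gm5087, 4930515G01Rik, Tigd3 and Met fell by 0.57, 0.45, 0.37, 0.37, 0.34, 0.30 and 0.24, and these calls ended without 3 to 5 of the 6 arrays (adjusted p up to 0.498). The Hyper-IL-6 means of Met, Olfr960 and Gm5087 lay below the lower quartiles. With each array centred on its median, 149 genes were called higher and 2 lower.

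Hyper-IL-6 array 2 gave the lowest of the 3 stimulated values for 140 of the 146 risen genes (95.9%), against 28.2% of all genes, and array 4 and array 6 did so for 1 and 5. The median rise of the 146 genes over the unstimulated mean was 0.46 on array 2 and 0.86 on each of arrays 4 and 6. Per gene, the rise on array 2 came to a median of 55.7% of the mean rise on arrays 4 and 6 (14.3% to 136%). The genes were not reduced evenly. The share was 90.4% for Pim1, 87.4% for Id1, 85.8% for Socs3, 83.2% for Cdkn2d, 80.5% for Gadd45g and 75.8% for Osm. It was 24.8% for Ccl3, 25.9% for Btg2, 27.3% for Fos, 27.7% for Nfkbiz, 34.8% for Egr2, 35.4% for Dusp2, 37.4% for Id2 and 40% for Dusp1. Members of the same lists differed widely. The share was 75.7% for Ier3, 68% for Fosl1 and 64.9% for Dusp6, but 54.2% for Cish, 47.6% for Bcl6 and 47.2% for Il10.

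By list, the median share among called members was 65.6% for the 4 SOCS genes, 65.1% for the 6 STAT5 targets and 72.1% for the 5 GADD45 and growth arrest genes. It was 39.3% for the 5 genes of the EGR, NR4A and IER list (Tnfaip2 among them), 40% for the 3 ERK phosphatases and 47.2% for the 9 cytokines. The 4 AP-1 genes (55.2%) and the 4 interferon-stimulated genes (53.35%) lay near the 55.7% of all risen genes. Ranges within lists were wide, 25.9% to 83.2% for the GADD45 list, 28.6% to 75.7% for the EGR list and 35.4% to 64.9% for the phosphatases. These shares rest on 1 array and on genes called with that array included, and are a description. On the first component of all deviations from group means (42.4% of their variance), array 2 scored 7.58 and arrays 4 and 6 scored -2.22 and -5.36, and unstimulated arrays 1, 3 and 5 scored -23.9, 11.8 and 12.1. In the 8 groups other than Hyper-IL-6, arrays numbered 1 or 2 scored below 0 and those numbered 3 to 6 above it. The part of array-wide differences in these shares was not tested.

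**Figure D3:**
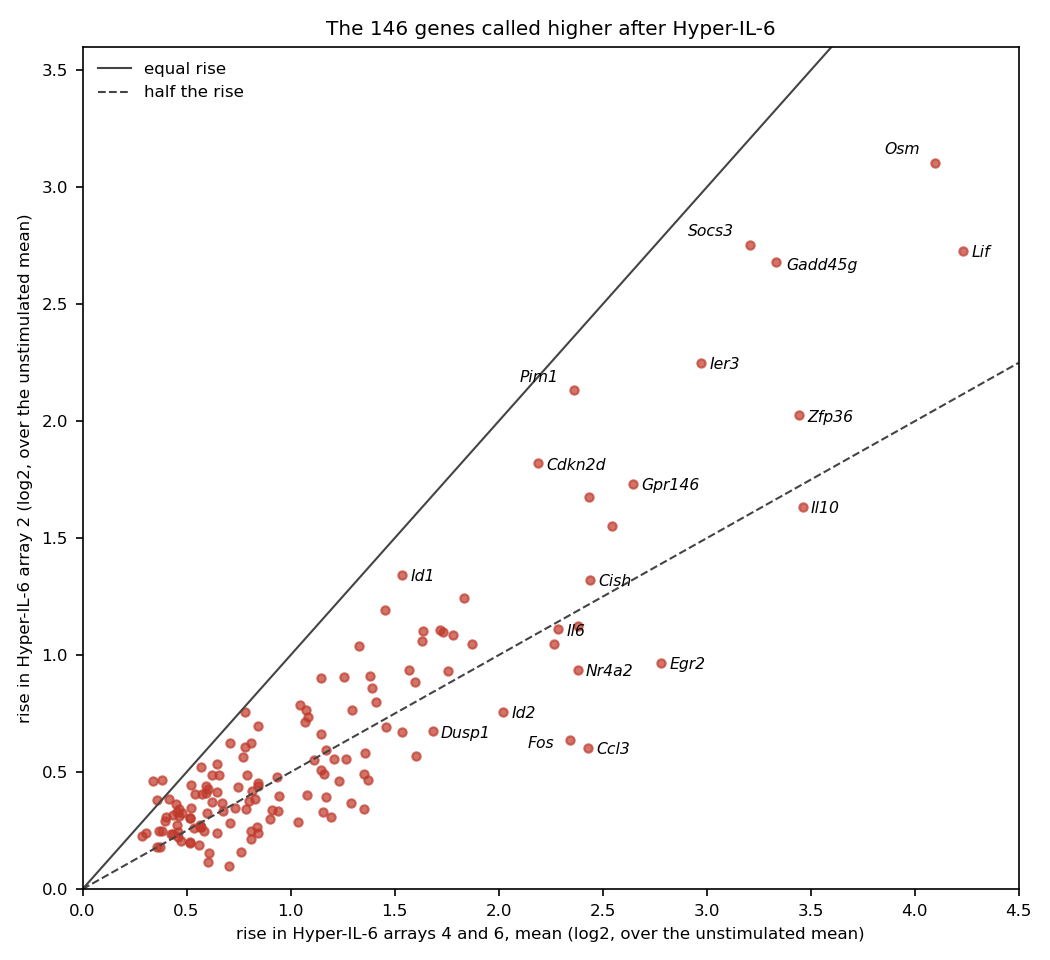
Rise over the unstimulated mean on Hyper-IL-6 array 2 (vertical axis, log2) against the mean rise on arrays 4 and 6 (horizontal axis, log2), one point for each of the 146 genes called higher. Pim1 and Socs3 lie near the line of equal rise, while Fos, Egr2 and Ccl3 lie below the lower, dashed line.

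GFP-PFC was the other 1 h addition to the same cells, and the difference between both additions was tested directly. Against the 3 parental GFP-PFC arrays, 98 genes were higher after Hyper-IL-6 and 3 lower (0.492% and 0.0151% of all genes). Of the 146 genes that rose against unstimulated cells, 90 passed here too, in a comparison that shares the Hyper-IL-6 arrays by which they were called. Another test used no array in both differences, the Hyper-IL-6 difference minus the mean GFP-PFC difference of CIR-1, CIR-2 and CIR-3, and called 63 genes higher and 2 lower (0.316% and 0.01%). All 63 were among the 146, which is no independent support, because that test contains the whole difference by which the 146 were called. In all 3 comparisons, which share the Hyper-IL-6 arrays, 62 genes were higher.

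Socs3, Gadd45g, Irf1, Cish, Il10 and Pim1 stood high after Hyper-IL-6 and near the unstimulated level after GFP-PFC. Socs3 read 9.25, 9.60 and 9.94 in parental GFP-PFC arrays 2, 4 and 6, none above the unstimulated range, and Hyper-IL-6 exceeded GFP-PFC by 3.25 (95% interval 2.68 to 3.82, adjusted p = 8.48e-08). Its GFP-PFC difference was -0.19 in parental cells and 0.08 in the CIR lines. For Gadd45g the Hyper-IL-6 difference was 3.12, and the GFP-PFC difference was 0.06 in parental cells and 0.10 in the CIR lines (difference of differences 3.01, SE 0.16, adjusted p = 4.53e-11). Irf1 differed by -0.35 and -0.27 after GFP-PFC, and the difference of differences was 1.78 (SE 0.15, adjusted p = 1.68e-07). Pim1 exceeded GFP-PFC by 2.37 (95% interval 1.27 to 3.47, adjusted p = 0.0392), and its difference of differences of 2.29 (1.02 to 3.56) did not pass (adjusted p = 0.204).

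Another set had similar values after both additions. Dusp6 read 11.59, 11.63 and 11.62 after GFP-PFC in parental cells, between array 2 and arrays 4 and 6 of Hyper-IL-6. Its GFP-PFC difference was 1.25 in parental cells, which did not pass (adjusted p = 0.9995), and 1.29 in the CIR lines (adjusted p = 0.00247), and Hyper-IL-6 minus GFP-PFC was 0.20 (95% interval -0.46 to 0.86). For Fosl1 that difference was 0.20 (-0.27 to 0.67), for Myc 0.29 (-0.15 to 0.72), for Dusp5 0.11 (-0.52 to 0.74) and for Dusp4 0.02 (-0.45 to 0.49), none of them past the threshold, and these intervals leave room for differences in both directions. Dusp5 and Dusp4 were called after GFP-PFC in the CIR lines (1.06 and 0.74, adjusted p = 0.0122 and 0.0206) and not after Hyper-IL-6. Their Hyper-IL-6 differences were of similar size. The CIR mean rests on 18 arrays and each parental difference on 6, so its SE is smaller. A GFP-PFC call in the CIR lines alone, also that of Dusp6, therefore does not show a larger difference there. Of the ERK phosphatase and Sprouty lists, 0 members passed against GFP-PFC in limma (2 of each list had a 95% interval above 0), where 3 and 2 had passed against unstimulated cells. The SOCS list had 3 of 4 (all but Socs2), and the IL-6 family ligands 3 of 3. Of the STAT3 target transcription factors, 11 passed against GFP-PFC, Batf among them (0.63, adjusted p = 0.0296) and Myc not.

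Egr2 and Il6 lay between both sets. Egr2 read 8.85, 9.12 and 9.34 after GFP-PFC, above all unstimulated values and at the level of Hyper-IL-6 array 2, with arrays 4 and 6 well above. Its GFP-PFC difference was 0.75 in parental cells and 1.12 in the CIR lines (adjusted p = 0.0288), and Hyper-IL-6 exceeded GFP-PFC by 1.43 (95% interval 0.69 to 2.17, adjusted p = 0.0922). Il6 exceeded GFP-PFC by 1.17 (0.69 to 1.66, adjusted p = 0.0137), with a GFP-PFC difference of 0.72 in parental cells. The GFP-PFC difference itself called 0 genes higher in parental cells in limma (217 at an unadjusted p under 0.05) and 13 in the CIR lines (0% and 0.0653% of all genes), 5 of the 13 among the 146. These 2 counts are not directly comparable, because the CIR mean rests on 18 arrays and the parental difference on 6. The test against GFP-PFC called 40 and 42 genes without Hyper-IL-6 arrays 4 and 6, 155 without array 2, and 55 and 57 without GFP-PFC arrays 2 and 4. The difference of differences called 33 and 34 genes without Hyper-IL-6 arrays 4 and 6, 43 without unstimulated array 3, and 122 without array 2.

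**Figure D4:**
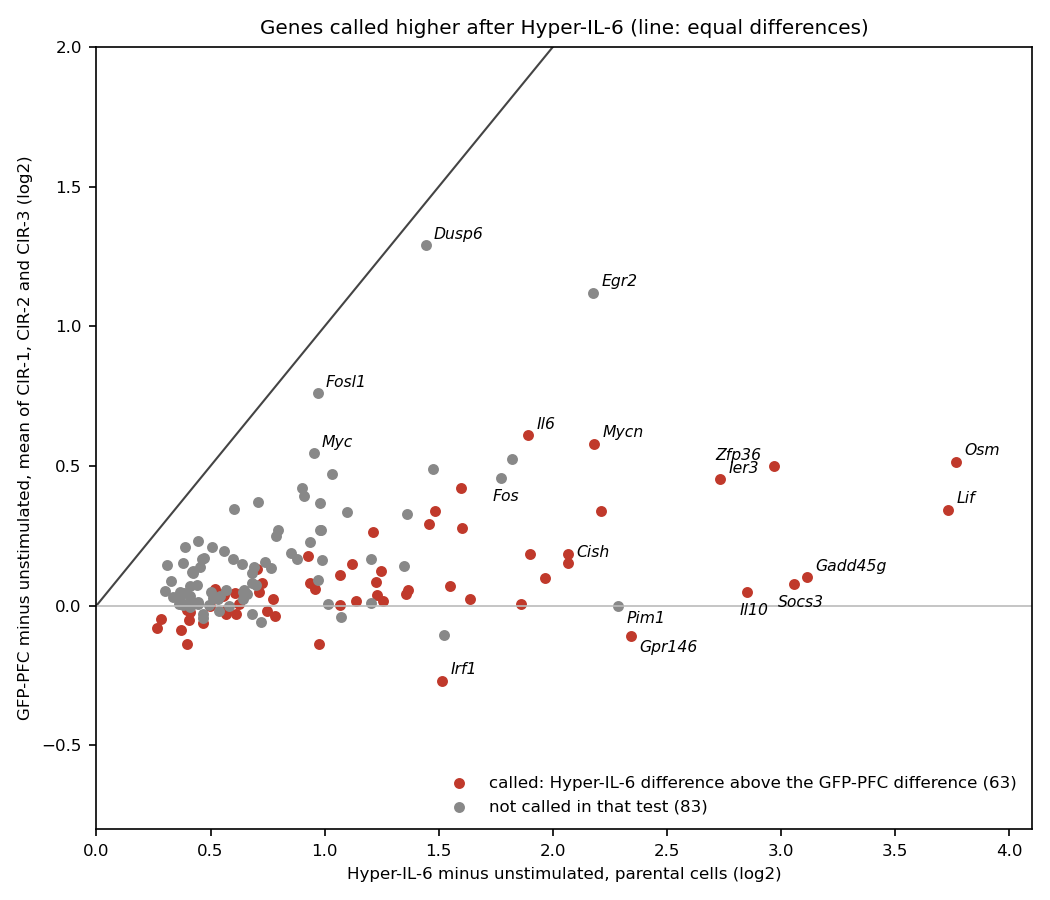
For the 146 genes called higher, the Hyper-IL-6 difference of parental cells (horizontal axis, log2) against the mean GFP-PFC difference of the 3 CIR lines (vertical axis, log2), with no array in both. The 63 genes called in the test between both differences are red, and Dusp6 lies close to the line of equal differences.

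The exon-level table of the same arrays splits a transcript into several probe sets, and its values share the arrays by which the genes were called, so they are a description. Of the 154 called genes, 153 had exon-level probe sets, the mean over them had the same sign in all 153, and 112 were called at that level, where 136 of 20352 genes were called (0.668%). The median exon-level difference was above 0 for all 145 risen genes with probe sets, and for 105 of them most of the probe sets were higher without overlap, as they were for 1.26% of all measured genes. Of all exon-level probe sets of measured genes, 5.24% were higher without overlap. Il6 had 6 of 6 such probe sets, with differences of 1.49 to 2.22, Irf1 13 of 14, and Osm 4 of 5, with differences of 0.39 to 4.27. Socs1 was not called at exon level, with 2 of 4 exon-level probe sets higher without overlap and 1 slightly negative at -0.04. The mean over the exon-level probe sets was lower than the gene-level rise for Lif (2.99), Socs3 (2.30) and Zfp36 (1.97), which were called there, and for Fosl1 (0.60, adjusted p = 0.303) and Socs2 (0.23, adjusted p = 0.604), which were not. Irf1 rose by 0.91 where its gene-level probe sets were averaged.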

How the data were processed

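Parental cells and the 3 CIR lines were measured on 27 Affymetrix mouse arrays, 3 in each of 9 groups, from 150 ng of total RNA per array. Per the submitters' processing notes, the authors used Affymetrix Expression Console, at the core level for genes and for exons, and the algorithm, version and normalization are not given in the sources used here. The deposited values were read as log2 signal from their range, so folds rest on that reading, and the deposited normalization was kept. Precision is set by the number of arrays. Among 35556 gene-level probe sets, 21789 had 1 gene symbol, and the brightest probe set stood for each of 1015 genes with several, which gave 19920 genes.

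R 4.3.3 with limma 3.58.1 fitted 1 mean per group to all 27 arrays without covariates, with two-sided moderated tests, Benjamini-Hochberg adjustment over all genes, a threshold of 0.05 and 95% intervals from the same fit. The contrasts were Hyper-IL-6 against unstimulated, against GFP-PFC, and the difference of differences with the CIR lines. The text names the 20 highest non-overlapping rises, every fall, called members of 30 gene lists, all members of the signalling lists, and other listed genes as values. The members and lists were chosen with earlier results of these data known, and the CArG box was added after the differences were seen. Alternatives were a fit to the compared arrays only, array weights, a replicate block, arrays left out, exon-level values, other probe set rules, a filter on dim genes, quantile normalization, median centring and an intensity trend. Promoters came from RefSeq (GRCm38.p6). The fit was tested on simulated data.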

Additional observations from a re-analysis of the deposited data

Results flagged for a closer look

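Probe sets without exactly 1 gene symbol took no part in the comparisons, and 13 of them passed limma's threshold between Hyper-IL-6 and unstimulated arrays, 7 higher and 6 lower. The 2 highest of them stood above the level of the unstimulated arrays by more than a doubling. Probe set 10495107, listed with 2 symbols, rose by 2.67 (SE 0.38, adjusted p = 0.000621), from a mean of 8.77 to 11.4. Probe set 10351206, listed with no symbol, rose by 1.32 (SE 0.23, adjusted p = 0.00652), from 10.2 to 11.6. Both had non-overlapping groups of 3 arrays.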

How the results depend on the processing

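For Hyper-IL-6 against unstimulated, 154 genes were called. The count was 31 with only the compared arrays fitted, 3468 with array weights (1358 higher, 2110 lower) and 3673 without the arrays numbered 1 and 2 in all groups (1362 higher, 2311 lower, with 153 of the 154 among them). For Hyper-IL-6 against GFP-PFC, 101 were called, and 66, 1927 and 236 under these settings. For the difference of differences with the CIR lines, 65 were called, and 440 with array weights and 344 without numbers 1 and 2. Leaving out 1 array at a time gave 78 to 248, 40 to 155 and 33 to 122. With a replicate block (numbers 1 and 2, 3 and 4, 5 and 6), a pairing the labels do not state, the counts were 325, 251 and 152. Across genes, deviations of GFP-PFC and unstimulated parental arrays in the same block correlated at 0.61, 0.35 and 0.58, but those of Hyper-IL-6 and unstimulated arrays at -0.46, -0.20 and -0.32, so the Hyper-IL-6 arrays did not deviate with their block. Settings not named so far moved no count by over 1.5 times. The causes were not tested. Without numbers 1 and 2, Pim3 turned from 0.02 to -0.24 (adjusted p = 0.0239) and Bik from 0.01 to -0.29 (adjusted p = 0.0184). Of 8970 values for named genes and lists under alternatives, 8210 kept their side of the threshold (or, for counts, stayed within 1.5 times). A further 576 were weaker and 182 stronger, and a change of sign in a value uncalled in both fits was not counted. In 26 genes, Socs3, Osm, Lif and Gadd45g among them, the call held in all 17 alternatives.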

Other observations

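Several risen genes outside the lists encode proteins of the immune cell surface, named here after their values were seen. Cd274, which encodes PD-L1, rose by 1.55 (adjusted p = 0.000624 in limma), and Pvr, a ligand of the receptors DNAM-1 and TIGIT, by 1.12 (adjusted p = 0.000165). Il17ra, a chain of the IL-17 receptor, rose by 1.07 (adjusted p = 3.68e-05), and the adhesion molecule Icam1 by 0.77 (adjusted p = 0.00319). These 4 calls held with each of the 6 arrays left out in turn. All 4 also passed against GFP-PFC, Pvr, Il17ra and Icam1 at 0.83, 0.98 and 0.73. The death receptor genes Tnfrsf1a and Fas rose by 0.68 and 0.66, and the checkpoint gene Lag3 by 0.45. Their calls ended without Hyper-IL-6 array 4 or 6 or unstimulated array 1, those of Fas and Lag3 also without unstimulated array 3, and that of Fas without unstimulated array 5 (adjusted p up to 0.111, 0.327 and 0.402).

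Lfng, a glycosyltransferase that modifies Notch receptors, rose by 1.37 and Notch1 by 0.61, and both also passed against GFP-PFC, at 1.18 and 0.54. The Notch target genes Hes1, Hey1 and Heyl differed by 0.05, -0.06 and 0.04 and the HES gene Hes6 by -0.13, and none of these 4 was called in limma (0 had an unadjusted p under 0.05). Plscr1, a gene known from interferon responses, rose by 0.71 (adjusted p = 7.33e-06). The G protein-coupled receptor genes Gpr171, P2ry13 and Lpar6 rose by 0.98, 0.85 and 0.65, and their calls ended without Hyper-IL-6 array 4 or 6 or unstimulated array 5 (adjusted p up to 0.209, 0.228 and 0.116). None of these 3 passed against GFP-PFC in limma (0.59, 0.67 and 0.49), although each 95% interval lay above 0. Hamp, which encodes hepcidin, rose by 0.38 (adjusted p = 0.0402), with mean signals of 5.00 and 5.38 that lay below the lower quartile of every array, and its call ended without 4 of the 6 arrays (adjusted p up to 0.479). Hamp and Slc25a30 had the highest values for Hyper-IL-6 array 2, at 136% and 123% of the mean rise of arrays 4 and 6.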
